A study of Mus musculus with 16 samples.

Results

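The genes described here are 10 members of the Notch signalling pathway of the mouse: the receptors Notch1, Notch2, Notch3 and Notch4, the ligands Jag1, Dll1 and Dll4, and the target genes Hes1, Hey1 and Hey2. They are 10 of the 18193 genes that the array measured with a probe set naming that gene alone, and the brightest of a gene's probe sets, by its mean signal, stands for the gene. RNA came from the distal stump of the sciatic nerve, the piece beyond a crush, where axons cut off from their cell bodies break down and Schwann cells change state (Wallerian degeneration). Per the labels, mice of 8 to 12 weeks from 2 strains were used, 56 of each, and Affymetrix Mouse Genome 430 2.0 arrays were hybridised. The 8 groups were WldS nerves uninjured (day 0) and at days 3, 7 and 14 after the crush, and C57BL/6 nerves, labelled wild type, at the same 4 time points, with 2 arrays each. WldS stands for C57BL/6 OlaHsd-Wlds mice, labelled WldS mutant, which carry in every cell a fusion gene of Ube4b and Nmnat1 that slows the breakdown of cut axons. The strain thus comes from the OlaHsd breeding line, and no substrain is given for the C57BL/6 mice, so that the mutation and the breeding line cannot be told apart. The crush was made at mid-thigh on the left sciatic nerve, and day 0 mice had none. A 4 mm segment was taken from 1 to 5 mm beyond the lesion, and RNA was extracted from pooled stumps. The labels call the 2 arrays of a group biological replicates and do not give the number of mice in a pool, so each p-value below measures the spread between pools.

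Notch receptors sit in the membrane of one cell and are activated by ligands of the Jagged and Delta-like families on a neighbouring cell. Binding lets an ADAM protease and then the gamma-secretase complex cut the receptor, and the freed intracellular part enters the nucleus, joins the DNA-binding protein RBPJ and switches on repressor genes of the Hes and Hey families. In peripheral nerve, Notch signalling is known from mice to promote the immature state of Schwann cells, to oppose myelination and to speed the loss of the myelinating state after injury. The same pathway shapes blood vessels: Notch4 and Dll4 are best known from endothelial cells, Notch3 from the smooth muscle cells and pericytes that wrap vessels, and Jag1 from both.

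All values are log2 probe set signals, so that a difference of 1 is a 2-fold change, and a level is comparable between arrays but not between genes. Values after ± are standard errors of limma's fit, with 2 pools per group. Nmnat1, whose coding sequence the fusion gene carries, measured 8.50 to 9.35 on the 8 WldS arrays and 5.42 to 6.34 on the 8 C57BL/6 arrays. Over the 16 arrays the Schwann cell markers Sox10 and Mbp measured 11.02 to 12.25 and 12.15 to 14.36. S100b, Erbb3 and Cdh19 measured 9.51 to 11.89, 9.70 to 12.47 and 10.56 to 12.42. Pmp22, Egr2 and Mag, which like Mbp mark the myelinating state, measured 12.14 to 14.17, 10.44 to 12.42 and 7.79 to 10.56. The array medians lay between 6.42 and 6.49. A measure of RNA integrity, the mean 3' minus 5' log2 signal of Actb and Gapdh, was 3.81 on WldS day 0 replicate 1 and 3.23 on WldS day 14 replicate 2, and between 1.63 and 2.46 on the other 14 arrays. The first 2 are called high-index arrays here. Where leaving out one or both of them ends a member's call in a comparison that uses them, a value without it is given. Other genes named below were not followed in these fits.

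Between 2 and 6 of the 9 testable members changed at each day after the crush, and the members that changed were not all the same in both strains. A member is written as having risen or fallen where limma's p-value, adjusted over all 14545 genes tested, was below 0.05. Hey2 lay below the limit of 5.37 for dim genes and was not tested. In WldS nerves 3 members rose and 0 fell at day 3, 5 rose and 1 fell at day 7, and 2 rose and 1 fell at day 14. For all genes tested the share called in WldS nerves was 36% at day 3 (20.8% higher, 15.2% lower), 35.2% at day 7 (21.9% higher, 13.3% lower) and 21.3% at day 14 (12.7% higher, 8.56% lower). In C57BL/6 nerves 1 member rose and 1 fell at day 3, 2 rose and 1 fell at day 7, and 2 rose and 2 fell at day 14. The shares of all genes called there were 41% (22.6% higher, 18.4% lower), 36.1% (19.6% higher, 16.4% lower) and 33.7% (17.1% higher, 16.7% lower). The median difference of the 9 members at day 7 was 0.45 in WldS nerves, against 0.01 over all genes tested, and 0.04 in C57BL/6 nerves, against 0.02 over all genes. Of these 6 comparisons with day 0, the 6 of 9 at day 7 in WldS nerves lay farthest above the share of all genes, and no test over the list was run. Among these WldS day 7 calls, those of Notch2 and Dll1 ended with the measure of RNA integrity as a covariate (limma, adjusted p = 0.236 and 0.214). The 3 comparisons of a strain share its day 0 arrays. In these bulk samples, a change in the number of cells of one type and a change in the RNA per cell cannot be told apart.

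**Figure D1:**
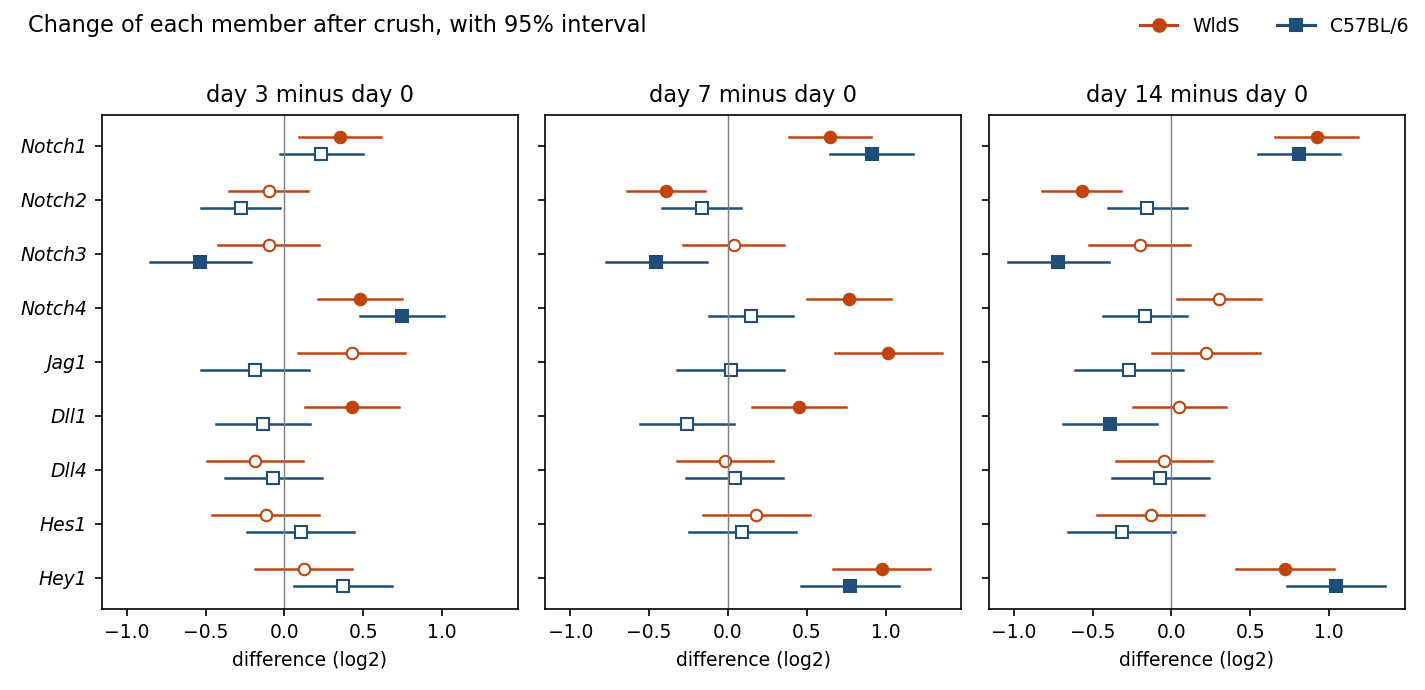
Difference in log2 signal from uninjured nerves (x axis) for the 9 tested members (rows) at days 3, 7 and 14, with WldS as circles above C57BL/6 as squares, 95% intervals as bars, and filled symbols where the adjusted p was below 0.05. Notch1 and Hey1 lie right of 0 in both strains at days 7 and 14, Notch3 lies left of 0 at each day in C57BL/6 nerves, and Jag1 at day 7 lies at 1.02 in WldS nerves and 0.02 in C57BL/6 nerves.

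Notch1, the receptor with the best known role in Schwann cells, rose over the time course in both strains. The WldS arrays read 9.68 and 9.75 at day 0, 10.12 and 10.01 at day 3, 10.47 and 10.25 at day 7 and 10.63 and 10.64 at day 14. The C57BL/6 arrays read 10.14 and 9.97 at day 0, 10.33 and 10.26 at day 3, 10.99 and 10.94 at day 7 and 11.00 and 10.73 at day 14. The ranges of day 0 did not overlap those of any later day in either strain, and the levels were lower in WldS nerves at each of the 4 time points on this probe set. The rise from day 0 in WldS nerves was 0.35 ± 0.12 (adjusted p = 0.0362) at day 3, 0.65 ± 0.12 (adjusted p = 0.00105) at day 7 and 0.92 ± 0.12 (adjusted p = 0.000109) at day 14. The C57BL/6 difference at day 3 was 0.24 ± 0.12 (adjusted p = 0.145). The gene rose there by 0.91 ± 0.12 (adjusted p = 4.48e-05) at day 7 and by 0.81 ± 0.12 (adjusted p = 0.000162) at day 14. On this probe set the C57BL/6 rise came between days 3 and 7, with a difference of 0.68 ± 0.12 (adjusted p = 0.0017) between those days. No step between neighbouring later days was called in WldS nerves (0.29 ± 0.12, adjusted p = 0.2 for day 7 against day 3, 0.27 ± 0.12, adjusted p = 0.245 for day 14 against day 7). Averaged over the 4 time points, Notch1 was lower in WldS nerves (-0.35 ± 0.06, adjusted p = 0.00134), and this was the member difference between the strains with the smallest adjusted p. The WldS day 3 rise was no longer called in 6 of the 16 fits that leave out 1 array, with adjusted p up to 0.197 without WldS day 3 replicate 1. It also ended without the high-index array WldS day 0 replicate 1 (0.31, adjusted p = 0.138) or without both high-index arrays (0.31, adjusted p = 0.145), and was 0.22 with quantile normalization (adjusted p = 0.211). A second, weaker Notch1 probe set (mean 8.04) differed from day 0 by -0.07, 0.13 and 0.36 at days 3, 7 and 14 in WldS nerves and by 0.32, 0.53 and 0.44 in C57BL/6 nerves. On that set WldS nerves differed from C57BL/6 nerves by 0.08, -0.31, -0.32 and 0.00 at days 0, 3, 7 and 14 and by -0.14 over all days (adjusted p = 0.218). With the mean of both sets the day 3 difference was called in C57BL/6 nerves (0.28, adjusted p = 0.0297) and not in WldS nerves (0.14, adjusted p = 0.267).

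Notch2, a receptor found on many cell types, fell late in WldS nerves. Its signal in WldS nerves was 11.12 and 10.95 at day 0, 10.92 and 10.94 at day 3, 10.73 and 10.56 at day 7 and 10.39 and 10.54 at day 14. Its signal in C57BL/6 nerves was 10.82 and 10.74 at day 0, 10.49 and 10.52 at day 3, 10.62 and 10.61 at day 7 and 10.51 and 10.75 at day 14. In WldS nerves the day 7 and day 14 arrays lay below all day 0 arrays. The fall in WldS nerves was -0.39 ± 0.12 (adjusted p = 0.0178) at day 7 and -0.57 ± 0.12 (adjusted p = 0.00316) at day 14, after -0.10 ± 0.12 (adjusted p = 0.542) at day 3. The C57BL/6 differences of -0.28 ± 0.12 (adjusted p = 0.0739) at day 3, -0.17 ± 0.12 (adjusted p = 0.301) at day 7 and -0.15 ± 0.12 (adjusted p = 0.351) at day 14 did not pass. The day 7 call in WldS nerves ended without either WldS day 0 replicate 1 (difference -0.31, adjusted p = 0.117), which is a high-index array, or WldS day 7 replicate 2 (-0.31, adjusted p = 0.119). The second probe set of the gene (mean 6.50) stayed within 0.12 of day 0 at each later day in both strains. The mean over both sets gave -0.26 at day 14 in WldS nerves (adjusted p = 0.0583).

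Notch3, the receptor of vessel-wrapping mural cells, fell in C57BL/6 nerves at each day after the crush on its brighter probe set. On WldS arrays Notch3 measured 9.90 and 9.84 at day 0, 9.67 and 9.88 at day 3, 9.98 and 9.84 at day 7 and 9.55 and 9.79 at day 14. On C57BL/6 arrays Notch3 measured 10.08 and 9.62 at day 0, 9.41 and 9.22 at day 3, 9.46 and 9.33 at day 7 and 9.12 and 9.15 at day 14. In WldS nerves the day 3 and day 7 arrays overlapped those of day 0, whereas the C57BL/6 arrays at later days all lay below both day 0 arrays. The differences from day 0 in WldS nerves were -0.10 ± 0.15 (adjusted p = 0.643) at day 3, 0.04 ± 0.15 (adjusted p = 0.869) at day 7 and -0.20 ± 0.15 (adjusted p = 0.384) at day 14. The fall in C57BL/6 nerves was -0.53 ± 0.15 (adjusted p = 0.0104) at day 3, -0.45 ± 0.15 (adjusted p = 0.0286) at day 7 and -0.72 ± 0.15 (adjusted p = 0.00198) at day 14. The difference between the strains in the change from day 0 was not called at any day. It was 0.43 ± 0.21 (adjusted p = 0.278) at day 3, 0.49 ± 0.21 (adjusted p = 0.238) at day 7 and 0.52 ± 0.21 (adjusted p = 0.334) at day 14. A second, weaker Notch3 probe set (mean 5.77) differed from day 0 by 0.26, 0.49 and -0.03 at days 3, 7 and 14 in WldS nerves and by -0.07, -0.10 and -0.26 in C57BL/6 nerves. On the mean of both sets the C57BL/6 difference was -0.30 at day 3 (adjusted p = 0.0802) and -0.28 at day 7 (adjusted p = 0.115), neither of which was called. Over the 4 time points together Notch3 was higher in WldS nerves by 0.38 ± 0.07 (adjusted p = 0.0031). C57BL/6 day 0 replicate 1, at 10.08, stands above its partner at 9.62, and without it the fall was -0.30 at day 3 (adjusted p = 0.163) and -0.22 at day 7 (adjusted p = 0.327). The day 3 call also ended without C57BL/6 day 3 replicate 2 (-0.44, adjusted p = 0.0868). The day 7 call ended without either C57BL/6 day 7 replicate 1 (-0.52, adjusted p = 0.0657) or replicate 2 (-0.39, adjusted p = 0.166).

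Notch4, the receptor of endothelial cells, rose in both strains, and its highest level came at day 7 in WldS nerves and at day 3 in C57BL/6 nerves. WldS nerves gave 5.96 and 6.06 at day 0, 6.42 and 6.56 at day 3, 6.91 and 6.65 at day 7 and 6.23 and 6.40 at day 14. C57BL/6 nerves gave 6.07 and 6.14 at day 0, 6.85 and 6.84 at day 3, 6.37 and 6.13 at day 7 and 5.98 and 5.89 at day 14. The WldS day 7 and C57BL/6 day 3 arrays lay above those of all 6 other groups, and these 2 groups did not differ beyond their spread. The rise was 0.48 ± 0.12 (adjusted p = 0.00764) at day 3 and 0.77 ± 0.12 (adjusted p = 0.000318) at day 7 in WldS nerves, with 0.30 ± 0.12 (adjusted p = 0.102) at day 14. The rise in C57BL/6 nerves was 0.75 ± 0.12 (adjusted p = 0.000221) at day 3, with 0.15 ± 0.12 (adjusted p = 0.406) at day 7 and -0.17 ± 0.12 (adjusted p = 0.333) at day 14. Notch4 fell between days 7 and 14 in WldS nerves (-0.47 ± 0.12, adjusted p = 0.043) and between days 3 and 7 in C57BL/6 nerves (-0.60 ± 0.12, adjusted p = 0.00414). The fall between days 7 and 14 in WldS nerves was no longer called in 13 of the 16 fits that leave out 1 array, with adjusted p up to 0.199 without WldS day 7 replicate 1. Without both high-index arrays it was -0.55 (adjusted p = 0.0823). The WldS day 3 call ended without WldS day 3 replicate 2 (0.41, adjusted p = 0.0721), and the C57BL/6 fall ended without C57BL/6 day 7 replicate 2 (-0.48, adjusted p = 0.0684). The gene's 2 other probe sets were nearer the limit for dim genes, with means of 5.53 and 5.43, and moved by at most 0.22 from day 0. With the mean of the 3 sets the WldS day 3 difference was 0.19 (adjusted p = 0.0881), and neither later fall was called (-0.10, adjusted p = 0.547 in WldS nerves, and -0.19, adjusted p = 0.121 in C57BL/6 nerves).

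**Figure D2:**
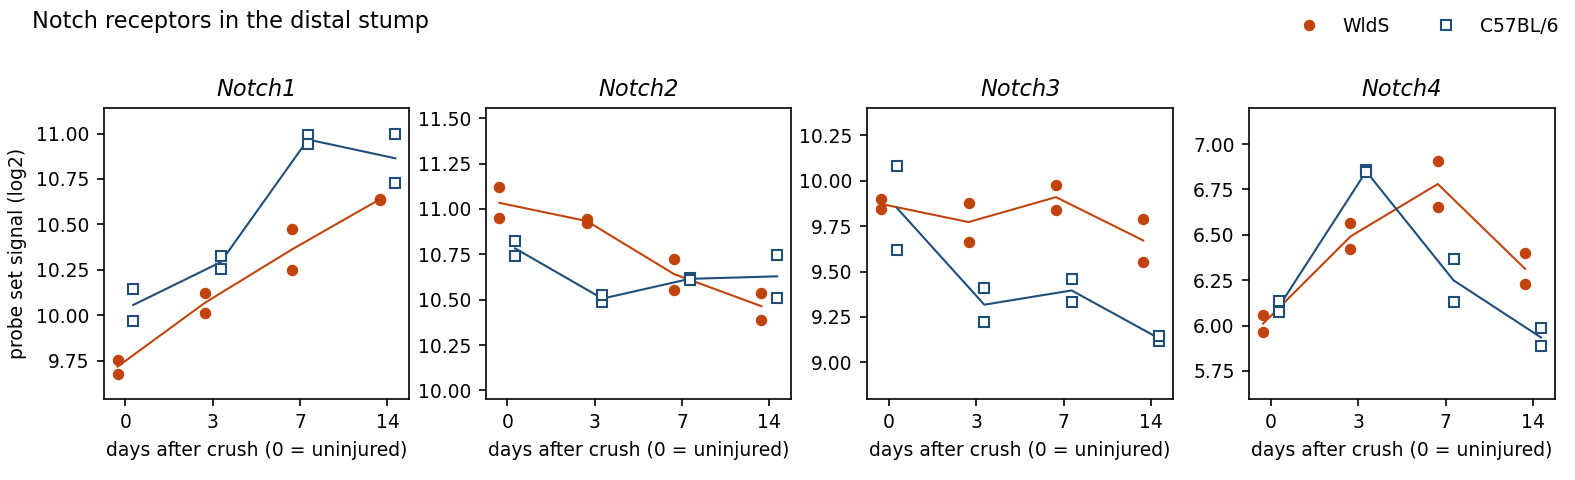
Log2 probe set signal (y axis) of the 4 receptors against days after the crush (x axis, evenly spaced time points), with 1 point per array, WldS as filled circles left of C57BL/6 as open squares, and lines through the group means. Notch1 climbs in both strains and is lower in WldS nerves at every time point, Notch3 is lower after injury in C57BL/6 nerves, and Notch4 is highest at day 7 in WldS nerves and at day 3 in C57BL/6 nerves.

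Jag1, a ligand of the Jagged family made by endothelial and smooth muscle cells among others, rose in WldS nerves at day 7. The WldS arrays read 8.22 and 8.23 at day 0, 8.65 and 8.66 at day 3, 9.39 and 9.10 at day 7 and 8.52 and 8.38 at day 14. The C57BL/6 arrays read 8.72 and 8.48 at day 0, 8.36 and 8.47 at day 3, 8.81 and 8.43 at day 7 and 8.52 and 8.15 at day 14. Both WldS day 7 arrays lay above all 14 other arrays, and in C57BL/6 nerves the day 7 arrays spanned those of day 0. The rise at day 7 was 1.02 ± 0.16 (adjusted p = 0.000255) in WldS nerves, a fold change of 2.03, against 0.02 ± 0.16 (adjusted p = 0.953) in C57BL/6 nerves. At day 3 the differences were 0.43 ± 0.16 (adjusted p = 0.0501) in WldS nerves, just short of the threshold, and -0.19 ± 0.16 (adjusted p = 0.389) in C57BL/6 nerves. At day 14 they were 0.22 ± 0.16 (adjusted p = 0.37) in WldS nerves and -0.27 ± 0.16 (adjusted p = 0.222) in C57BL/6 nerves. Within WldS nerves Jag1 rose between days 3 and 7 (0.59 ± 0.16, adjusted p = 0.0395) and fell between days 7 and 14 (-0.80 ± 0.16, adjusted p = 0.00928). The day 7 level was the only one separated from its neighbour in the order of the 8 group means by more than the 95% interval of a difference, a gap of 0.59 against an interval of ± 0.34.

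The change of Jag1 from day 0 to day 7 was larger in WldS nerves than in C57BL/6 nerves by 1.00 ± 0.23 (adjusted p = 0.0236). Jag1 was the only 1 of the 9 members called in that comparison, where 4.11% of all genes were called. This call ended without C57BL/6 day 0 replicate 1 (0.88, adjusted p = 0.105), C57BL/6 day 7 replicate 2 (0.81, adjusted p = 0.126), WldS day 7 replicate 1 (0.85, adjusted p = 0.063) or the high-index array WldS day 0 replicate 1 (1.00, adjusted p = 0.0587). The probe sets of Jag1 disagreed on the C57BL/6 nerves. The second set (mean 6.17) differed from day 0 at day 7 by 1.23 in WldS nerves and by 0.79 in C57BL/6 nerves, so that its difference between the strains was 0.45. The third, at a mean of 5.65, moved by at most 0.11. With the mean of the 3 sets the difference between the strains was 0.51 (adjusted p = 0.226), below that of Dll1, which was then called (0.71, adjusted p = 0.044). The rise in WldS nerves between days 3 and 7 ended without WldS day 3 replicate 1 (0.58, adjusted p = 0.232), WldS day 3 replicate 2 (0.60, adjusted p = 0.146) or WldS day 7 replicate 1 (0.44, adjusted p = 0.29). The later fall ended without WldS day 7 replicate 1 (-0.65, adjusted p = 0.0657) or the high-index array WldS day 14 replicate 2 (-0.73, adjusted p = 0.105).

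Dll1, a Delta-like ligand known among other places from arterial endothelium, rose in WldS nerves at days 3 and 7 and fell in C57BL/6 nerves at day 14. Its signal in WldS nerves was 6.97 and 7.05 at day 0, 7.54 and 7.33 at day 3, 7.48 and 7.44 at day 7 and 7.09 and 7.02 at day 14. Its signal in C57BL/6 nerves was 7.48 and 7.36 at day 0, 7.14 and 7.42 at day 3, 7.27 and 7.04 at day 7 and 7.18 and 6.87 at day 14. The WldS day 3 and day 7 arrays lay above both WldS day 0 arrays, and the C57BL/6 day 14 arrays below both C57BL/6 day 0 arrays. The WldS means at days 3 and 7 (7.44 and 7.46) were near that of uninjured C57BL/6 nerves (7.42). The rise in WldS nerves was 0.43 ± 0.14 (adjusted p = 0.0263) at day 3 and 0.45 ± 0.14 (adjusted p = 0.0212) at day 7, with 0.05 ± 0.14 (adjusted p = 0.841) at day 14. With the measure of RNA integrity as a covariate, neither was called (0.29, adjusted p = 0.337 at day 3, and 0.33, adjusted p = 0.214 at day 7). The C57BL/6 differences were -0.13 ± 0.14 (adjusted p = 0.484) at day 3 and -0.26 ± 0.14 (adjusted p = 0.171) at day 7, and the fall at day 14 was -0.39 ± 0.14 (adjusted p = 0.0435). The change from day 0 was higher in WldS nerves by 0.56 ± 0.20 (adjusted p = 0.121) at day 3 and 0.71 ± 0.20 (adjusted p = 0.0589) at day 7, neither of which was called. The 2 WldS calls ended without the high-index array WldS day 0 replicate 1 (0.39, adjusted p = 0.106 at day 3, and 0.41, adjusted p = 0.0896 at day 7). They also ended without WldS day 3 replicate 1 at day 3 (0.32, adjusted p = 0.202), and without WldS day 7 replicate 1 (0.43, adjusted p = 0.084) or replicate 2 (0.47, adjusted p = 0.0561) at day 7. The C57BL/6 day 14 call ended in 5 of the 16 fits that leave out 1 array, with adjusted p up to 0.337 without C57BL/6 day 14 replicate 2.

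Dll4, the ligand of sprouting and arterial endothelial cells, was called in none of the 18 comparisons on its brighter probe set. On WldS arrays Dll4 measured 6.53 and 6.19 at day 0, 6.08 and 6.27 at day 3, 6.54 and 6.14 at day 7 and 6.28 and 6.35 at day 14. On C57BL/6 arrays Dll4 measured 6.25 and 6.15 at day 0, 6.17 and 6.09 at day 3, 6.24 and 6.25 at day 7 and 6.14 and 6.12 at day 14. All 8 group means lay within 0.23 of each other, and the widest SD between arrays was 0.28, in WldS nerves at day 7. At day 7 the difference from day 0 was -0.02 ± 0.14 (adjusted p = 0.931) in WldS nerves, with a 95% interval of -0.33 to 0.29. It was 0.04 ± 0.14 (adjusted p = 0.855) in C57BL/6 nerves, with an interval of -0.26 to 0.35. The second Dll4 probe set, at a mean of 5.74, differed from day 0 by -0.34, -0.21 and -0.51 at days 3, 7 and 14 in WldS nerves and by 0.03, -0.03 and -0.12 in C57BL/6 nerves. On the mean of both sets Dll4 was higher in WldS nerves over all days (0.17, adjusted p = 0.036).

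Jag1, Notch4 and Dll1 rose at day 7 in WldS nerves and were not called in C57BL/6 nerves at that day. The 250 bases before their annotated starts are shown here for what the 3 hold in common, with Hey2 as the only member window that holds the letters of RBPJ. Sequences and positions are those of RefSeq on GRCm38.p6, printed along the gene's strand and ending at the base before the start. The 3 motifs searched on both strands were TGGGAA for RBPJ, CCGGAA for ETS factors, which bind many endothelial genes, and TGANTCA for AP-1, an injury-induced factor. They do not overlap in the windows shown. RefSeq windows were found for 8 of the 10 members, 9 windows in all. No window was found for Hes1 or Hey1, so neither gene was searched for the motifs. Capitals mark a match.
Jag1, chr2:137116521-137116770, minus strand: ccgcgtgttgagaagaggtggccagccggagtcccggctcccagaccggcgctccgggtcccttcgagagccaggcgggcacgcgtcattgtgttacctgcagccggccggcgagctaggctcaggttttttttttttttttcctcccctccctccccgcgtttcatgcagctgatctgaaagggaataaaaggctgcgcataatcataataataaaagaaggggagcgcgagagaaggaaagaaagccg
Notch4, chr17:34564045-34564294, plus strand: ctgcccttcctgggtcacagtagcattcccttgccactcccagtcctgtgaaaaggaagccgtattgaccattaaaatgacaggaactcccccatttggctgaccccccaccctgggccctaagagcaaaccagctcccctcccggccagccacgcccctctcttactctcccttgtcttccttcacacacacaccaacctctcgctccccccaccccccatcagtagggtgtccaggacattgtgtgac
Dll1, chr17:15376933-15377182, minus strand: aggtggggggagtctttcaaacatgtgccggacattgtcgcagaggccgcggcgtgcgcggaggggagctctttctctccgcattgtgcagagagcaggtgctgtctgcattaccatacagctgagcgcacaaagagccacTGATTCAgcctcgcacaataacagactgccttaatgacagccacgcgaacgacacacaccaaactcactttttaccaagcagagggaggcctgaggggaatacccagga
Hey2, chr10:30842784-30843033, minus strand: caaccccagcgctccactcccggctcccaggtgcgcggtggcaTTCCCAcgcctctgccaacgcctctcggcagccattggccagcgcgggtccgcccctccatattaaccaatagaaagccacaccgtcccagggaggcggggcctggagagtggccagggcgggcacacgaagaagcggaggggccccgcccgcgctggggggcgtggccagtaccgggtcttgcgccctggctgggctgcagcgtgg
Hey2 holds TTCCCA, the reverse strand of the RBPJ letters, starting 207 bases before the start, and 1 of the 9 member windows holds that motif against 21.6% of 32851 mouse windows of this length. The Dll1 window holds TGATTCA 109 bases before the start, 1 of the 9 windows against 6.75% of all windows. RefSeq gives Dll1 another start, whose window (chr17:15375824-15376073, not printed) holds none of the 3 motifs. The ETS letters are in 0 of the 9 windows, against 12% of all. None of the 3 motifs is in the Jag1 or Notch4 window, which says only that these letters are not in the 250 bases shown.

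Hes1, the most widely used Notch target and a repressor of differentiation genes, was called in none of the 18 comparisons. WldS nerves gave 8.61 and 8.75 at day 0, 8.52 and 8.60 at day 3, 8.58 and 9.14 at day 7 and 8.56 and 8.53 at day 14. C57BL/6 nerves gave 8.70 and 8.43 at day 0, 8.70 and 8.63 at day 3, 8.55 and 8.75 at day 7 and 8.27 and 8.23 at day 14. Its highest value, 9.14 on WldS day 7 replicate 2, stood apart from its partner at 8.58, and this group had the widest SD of the gene (0.40). At day 7 the difference from day 0 was 0.18 ± 0.16 (adjusted p = 0.41) in WldS nerves, with a 95% interval of -0.16 to 0.52. It was 0.09 ± 0.16 (adjusted p = 0.707) in C57BL/6 nerves, with an interval of -0.25 to 0.43. Without WldS day 7 replicate 1 the WldS difference at day 7 was 0.46 and was called (adjusted p = 0.0336). At day 14 in C57BL/6 nerves, where both arrays lay below all others of the gene, the difference was -0.32 ± 0.16 (adjusted p = 0.145).

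Hey1, a repressor of the Hey family that Notch induces in vessels and elsewhere, rose at days 7 and 14 in both strains. The WldS arrays read 6.94 and 7.10 at day 0, 7.14 and 7.14 at day 3, 8.17 and 7.82 at day 7 and 7.87 and 7.62 at day 14. The C57BL/6 arrays read 7.24 and 7.18 at day 0, 7.41 and 7.75 at day 3, 8.02 and 7.94 at day 7 and 8.23 and 8.28 at day 14. The day 7 and day 14 arrays lay above all day 0 and day 3 arrays in each strain, and both WldS day 3 arrays still measured 7.14. The rise in WldS nerves was 0.98 ± 0.14 (adjusted p = 0.000169) at day 7 and 0.72 ± 0.14 (adjusted p = 0.00278) at day 14, after 0.12 ± 0.14 (adjusted p = 0.552) at day 3. The difference at day 3 in C57BL/6 nerves was 0.37 ± 0.14 (adjusted p = 0.054). The later rise there was 0.77 ± 0.14 (adjusted p = 0.000771) at day 7 and 1.04 ± 0.14 (adjusted p = 7.76e-05) at day 14. The WldS rise came between days 3 and 7 (0.85 ± 0.14, adjusted p = 0.00228). No step between neighbouring later days was called in C57BL/6 nerves (0.40 ± 0.14, adjusted p = 0.0638 and 0.27 ± 0.14, adjusted p = 0.441). Over the 4 time points together the level was lower in WldS nerves (-0.28 ± 0.07, adjusted p = 0.0168), a call that ended without the 2 high-index arrays (-0.23, adjusted p = 0.0681).

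Hey2, the Hey gene of arteries and the heart, measured between 4.00 and 4.67 on all 16 arrays, below the limit of 5.37 on each of them. Its group means ran from 4.10 in C57BL/6 nerves at day 3 to 4.52 in C57BL/6 nerves at day 0, and no difference was tested.

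**Figure D3:**
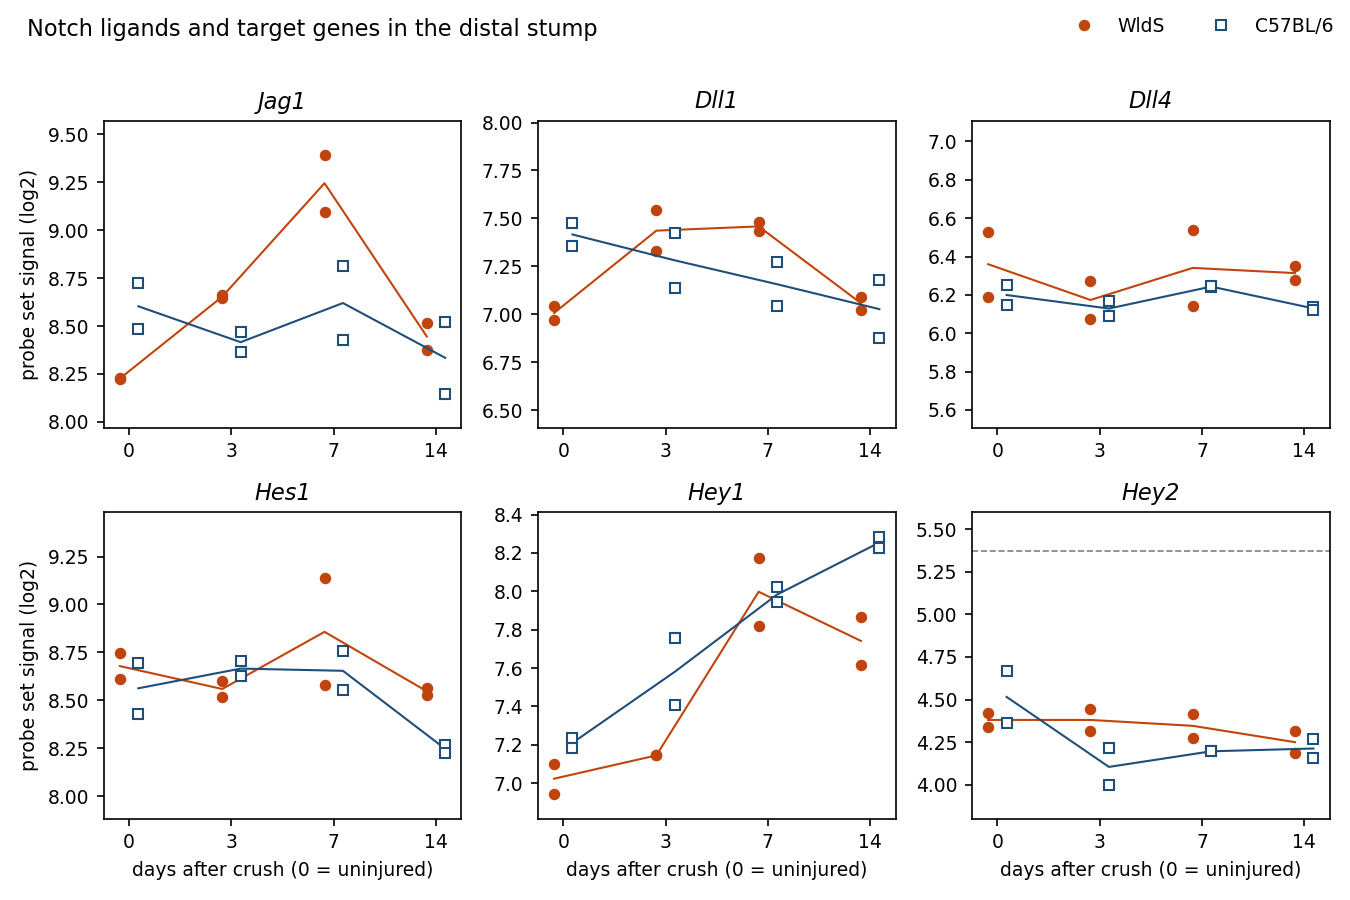
Log2 probe set signal (y axis) of the 3 ligands and 3 target genes against days after the crush (x axis, evenly spaced time points), with 1 point per array, WldS as filled circles left of C57BL/6 as open squares, lines through the group means, and a dashed line at the limit for dim genes (5.37) in the Hey2 panel. Jag1 peaks at day 7 in WldS nerves, Hey1 is above its day 0 level at days 7 and 14 in both strains, and Hey2 stays below the limit.

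The strains were next compared day by day to find where the WldS and C57BL/6 nerves held different levels of the members. Before injury 0 of the 9 members differed, where 0.227% of all genes were called. An unadjusted p below 0.05 was found for 4 of the 9 members, and for 2549 of the 14545 genes tested. The 4 members were Notch1 (-0.34 ± 0.12, adjusted p = 0.204), Notch2 (0.25 ± 0.12, adjusted p = 0.284), Jag1 (-0.38 ± 0.16, adjusted p = 0.251) and Dll1 (-0.41 ± 0.14, adjusted p = 0.195). At day 3 only Notch2 of the 9 members differed, being higher in WldS nerves by 0.43 ± 0.12 (adjusted p = 0.0325), with 9.44% of all genes called. At day 7, with 6.83% of all genes called, Notch1 was lower in WldS nerves (-0.60 ± 0.12, adjusted p = 0.00645), and Notch4 (0.53 ± 0.12, adjusted p = 0.0169) and Jag1 (0.62 ± 0.16, adjusted p = 0.0278) were higher. At day 14, with 6.46% called, Notch3 was higher in WldS nerves (0.54 ± 0.15, adjusted p = 0.0469) and Hey1 was lower (-0.51 ± 0.14, adjusted p = 0.04996). Over all days together 3 members differed, with 17% of all genes called: Notch1 and Hey1 were lower and Notch3 was higher in WldS nerves. Every one of these calls at days 3, 7 and 14 ended in at least 1 of the 16 fits that leave out an array. The number of such fits was 6 for Notch2 at day 3, 3 for Notch1 and 2 each for Notch4 and Jag1 at day 7, and 10 for Notch3 and 9 for Hey1 at day 14. For Notch2, Notch3 and Hey1 some of these fits left out an array of neither group compared, which did not change the difference itself. The adjusted p reached 0.167 for Notch2 at day 3 without WldS day 3 replicate 2. At day 7 it reached 0.0765 for Notch1 without WldS day 7 replicate 2, and 0.235 for Notch4 and 0.351 for Jag1 without C57BL/6 day 7 replicate 2. At day 14 both calls ended without the high-index array WldS day 14 replicate 2. The difference was then 0.42 for Notch3 and -0.39 for Hey1. With the mean of a gene's probe sets the calls of Notch2 at day 3 (0.22, adjusted p = 0.171), Notch4 (0.18, adjusted p = 0.24) and Jag1 (0.37, adjusted p = 0.185) at day 7 and Notch3 at day 14 (0.30, adjusted p = 0.183) also ended.

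Whether a member changed differently after the crush in the 2 strains was tested by subtracting the C57BL/6 change since day 0 from that in WldS nerves. At day 3, 0 of the 9 members were called, against 6.16% of all genes. An unadjusted p below 0.05 was found for 2 members, Jag1 (0.61 ± 0.23, adjusted p = 0.143) and Dll1, and for 2886 of the 14545 genes tested. At day 7 Jag1 was called, and the differences of Notch4 (0.62 ± 0.18, adjusted p = 0.0633) and Dll1 were not. At day 14, 0 were called, against 1.58% of all genes. An unadjusted p below 0.05 was found for 5 members and for 1716 of the 14545 genes tested. Of these 5 members, Notch3, Jag1 (0.49 ± 0.23, adjusted p = 0.418), Notch4 (0.47 ± 0.18, adjusted p = 0.269) and Dll1 (0.44 ± 0.20, adjusted p = 0.396) were positive, and Notch2 (-0.42 ± 0.16, adjusted p = 0.313) was negative. For Notch1 the difference between the changes was -0.26 ± 0.17 (adjusted p = 0.455) at day 7, with a 95% interval of -0.63 to 0.10. For Hey1 it was 0.20 ± 0.20 (adjusted p = 0.655), with an interval of -0.24 to 0.64. Between successive days, 2 members changed from day 3 to day 7 in WldS nerves, where 6.62% of all genes were called, and 2 in C57BL/6 nerves, where 20.3% were. From day 7 to day 14, 2 members changed in WldS nerves, with 5.23% of all genes called, and 0 in C57BL/6 nerves, with 5.27% called. In that C57BL/6 comparison 2 members and 2142 of the 14545 genes tested had an unadjusted p below 0.05.

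Of 57 other genes of the pathway, chosen by their known roles, 53 were measured and 52 could be tested. In WldS nerves 11 rose and 3 fell at day 3, 12 rose and 6 fell at day 7, and 7 rose and 3 fell at day 14. Among C57BL/6 nerves 8 rose and 7 fell at day 3, 11 rose and 9 fell at day 7, and 9 rose and 9 fell at day 14. The called genes were 14, 18 and 10 of 52 at days 3, 7 and 14 in WldS nerves, beside 36%, 35.2% and 21.3% of all genes, and 15, 20 and 18 of 52 in C57BL/6 nerves, beside 41%, 36.1% and 33.7%. None of these counts stands clearly above the share of all genes. Their median difference at day 7 was 0.10 in WldS nerves and -0.02 in C57BL/6 nerves, beside 0.01 and 0.02 over all genes tested.

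Among the proteases that process Notch receptors, Furin, which cuts the receptor on its way to the membrane, rose at all 3 later days in WldS nerves (0.62, 0.62 and 0.75) and in C57BL/6 nerves (1.06, 0.74 and 0.65). Adam17, a protease of the same family as Adam10, rose at each day by 0.58, 0.68 and 0.80 in WldS nerves and by 0.47, 0.94 and 1.33 in C57BL/6 nerves. At day 14 its level was lower in WldS nerves (-0.59 ± 0.11, adjusted p = 0.00502). Adam10, the main protease of ligand-activated Notch, had differences of -0.30, -0.12 and -0.13 in WldS nerves, none of them called, and fell in C57BL/6 nerves at day 3 (-0.66 ± 0.12, adjusted p = 0.000456) and day 7 (-0.60 ± 0.12, adjusted p = 0.00127). Adam10 was named for its role after its values were seen. Ncstn, a subunit of gamma-secretase, rose at day 3 (0.68 ± 0.16, adjusted p = 0.00529) and day 7 (0.57 ± 0.16, adjusted p = 0.0146) in WldS nerves and at day 7 (0.54 ± 0.16, adjusted p = 0.0189) in C57BL/6 nerves. Aph1b, another subunit, fell at day 3 in C57BL/6 nerves (-0.67 ± 0.14, adjusted p = 0.00122).

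Dlk1, a ligand-like gene that lacks the receptor-binding domain of the Delta family, had the largest change of the pathway genes. It rose at day 7 by 3.16 ± 0.20 (adjusted p = 9.87e-08) in WldS nerves and by 2.51 ± 0.20 (adjusted p = 3.21e-07) in C57BL/6 nerves. It was within 0.06 of day 0 at day 3 in both strains. Egfl7, a secreted endothelial gene, fell in C57BL/6 nerves at day 7 (-0.65 ± 0.14, adjusted p = 0.00191) and day 14 (-0.91 ± 0.14, adjusted p = 0.00015). Its change to day 7 was higher in WldS nerves by 0.91 ± 0.19 (adjusted p = 0.0176). Of the enzymes that add sugars to Notch receptors, Lfng rose at day 3 in WldS nerves (0.53 ± 0.15, adjusted p = 0.0116) and in C57BL/6 nerves (0.41 ± 0.15, adjusted p = 0.0341). Pofut1, which adds the first fucose, rose in WldS nerves at day 3 (0.49 ± 0.14, adjusted p = 0.0145) and day 7 (0.62 ± 0.14, adjusted p = 0.00393).

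In the nucleus, Rbpj, the DNA-binding partner of cleaved Notch, rose in WldS nerves at day 3 (0.95 ± 0.16, adjusted p = 0.000326) and day 7 (0.72 ± 0.16, adjusted p = 0.00299), with C57BL/6 differences of 0.40 and 0.34 that were not called. The difference between the strains in that change was 0.55 ± 0.22 (adjusted p = 0.187) at day 3. Of the Groucho-type corepressors, through which Hes proteins act, Tle2 fell at all 3 days in WldS nerves (-0.73, -0.63 and -0.62) and in C57BL/6 nerves (-1.08, -0.86 and -0.78). Tle3 rose at day 14 in WldS nerves (0.77 ± 0.14, adjusted p = 0.00145) and at days 7 and 14 in C57BL/6 nerves (1.23 ± 0.14, adjusted p = 1.03e-05 and 1.22 ± 0.14, adjusted p = 1.42e-05). Its change to day 7 was smaller in WldS nerves (-0.90 ± 0.20, adjusted p = 0.0215). The coactivator Kat2b differed from day 0 at day 3 by 0.02 ± 0.13 (adjusted p = 0.939) in WldS nerves and fell in C57BL/6 nerves (-0.66 ± 0.13, adjusted p = 0.00106). The difference between those changes was called (0.68 ± 0.19, adjusted p = 0.0487).

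Of 5 further genes, either of the Hes and Hey families or targets, Nrarp, a feedback inhibitor that Notch induces, rose at day 7 in WldS nerves (0.51 ± 0.14, adjusted p = 0.00945). It also rose at days 3 and 7 in C57BL/6 nerves (0.44 ± 0.14, adjusted p = 0.0172 and 0.45 ± 0.14, adjusted p = 0.019). Hes6, a family member that opposes Hes1, rose at day 3 in WldS nerves (0.62 ± 0.22, adjusted p = 0.0371) and at all 3 days in C57BL/6 nerves (0.82, 0.66 and 0.60). Heyl fell in C57BL/6 nerves at day 14 (-0.51 ± 0.12, adjusted p = 0.00453), and Hes5 fell in WldS nerves at day 7 (-0.39 ± 0.14, adjusted p = 0.0422). Dtx4, a member of the Deltex ubiquitin ligases, rose at all 3 days in WldS nerves (0.58, 1.01 and 0.90) and at days 7 and 14 in C57BL/6 nerves (0.89 and 0.72). Dtx2, of the same family, fell at days 7 and 14 in WldS nerves (-0.80 and -0.59) and in C57BL/6 nerves (-0.63 and -0.65).

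Markers of vessel cells changed as well. All 10 endothelial markers passed the limit for dim genes. In WldS nerves 6 of them rose and 0 fell at day 3, and 7 rose and 0 fell at day 7. Over all genes tested, 20.8% rose and 15.2% fell there at day 3, and 21.9% rose and 13.3% fell at day 7. In C57BL/6 nerves 2 of the markers rose and 1 fell at day 3, 1 rose and 1 fell at day 7, and 0 rose and 5 fell at day 14. The shares of all genes there were 22.6% and 18.4%, 19.6% and 16.4%, and 17.1% and 16.7%. The mean level of the list, each gene set to its own mean over the 16 arrays, was -0.44 to -0.16 at day 0, 0.19 to 0.41 at day 3, 0.33 to 0.58 at day 7 and -0.50 to -0.18 at day 14 in WldS nerves. In C57BL/6 nerves it was 0.02 to 0.08 at day 0, 0.07 to 0.36 at day 3, -0.10 to 0.01 at day 7 and -0.40 to -0.27 at day 14. The defining markers Cdh5 and Pecam1 were present on all arrays, at 7.12 to 8.63 and 5.49 to 7.53. Cdh5 and Tie1 changed more in WldS than in C57BL/6 nerves at day 7, by 0.98 ± 0.25 (adjusted p = 0.0427) and 0.95 ± 0.24 (adjusted p = 0.0426). Within WldS nerves the list had its highest mean at day 7, as did Notch3, Notch4, Jag1, Dll1, Hes1 and Hey1. The lists of arterial endothelial, pericyte and smooth muscle, fibroblast and perineurial, and cell division markers were also highest there at day 7. In C57BL/6 nerves the list averaged 0.21 at day 3 and 0.05 at day 0, while Jag1 and Dll1 differed by -0.19 and -0.13. The part of the markers in the members' changes was not tested.

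All 10 pericyte and smooth muscle markers were tested as well. In WldS nerves 4 rose and 1 fell at day 3, 4 rose and 0 fell at day 7, and 0 rose and 3 fell at day 14. For the same list in C57BL/6 nerves, 1 rose and 4 fell at day 3, 0 rose and 4 fell at day 7, and 0 rose and 5 fell at day 14. The shares of all genes called were 36%, 35.2% and 21.3% at days 3, 7 and 14 in WldS nerves. In C57BL/6 nerves they were 41%, 36.1% and 33.7%. Counted in either direction, no total of the list stood clearly above these shares. The list level was -0.03 to 0.14, 0.27 to 0.31, 0.32 to 0.33 and -0.28 to -0.20 at days 0, 3, 7 and 14 in WldS nerves. The C57BL/6 levels were 0.20 to 0.38, -0.12 to -0.02, -0.21 to -0.14 and -0.51 to -0.46. In WldS nerves the list averaged 0.29 at day 3 and 0.06 at day 0, while Notch3 differed by -0.10. Both this list and Notch3 were below their day 0 level at each later day in C57BL/6 nerves, but so were the fibroblast and perineurial, adipocyte and skeletal muscle lists. The fibroblast and perineurial list averaged 0.24, -0.46, 0.02 and -0.11 at days 0, 3, 7 and 14 there, the adipocyte list 0.86, -0.26, -0.37 and -0.33, and the skeletal muscle list 0.23, -0.15, -0.23 and -0.33. The part of these markers in the Notch3 result was not tested. Rgs5, a pericyte gene, rose at day 7 in WldS nerves (1.04 ± 0.14, adjusted p = 6.59e-05), with 0.30 ± 0.14 (adjusted p = 0.115) in C57BL/6 nerves. The 8 markers of immature and repair Schwann cells rise when Schwann cells leave the myelinating state. Their mean level was highest at day 3 in C57BL/6 nerves and at day 14 in WldS nerves. Of them 4 rose and 3 fell at day 3 in WldS nerves, against 7 and 0 in C57BL/6 nerves. Of all genes, 20.8% rose and 15.2% fell at that day in WldS nerves, and 22.6% and 18.4% in C57BL/6 nerves. At day 14 all 8 markers had risen in WldS nerves and 7 in C57BL/6 nerves, beside 12.7% and 17.1% of all genes. The list averaged -1.52, -0.76, 0.16 and 0.49 at days 0, 3, 7 and 14 in WldS nerves. In C57BL/6 nerves it averaged -1.32, 1.27, 1.04 and 0.64. The WldS means of this list and of Notch1 both climbed from each time point to the next. In C57BL/6 nerves the list was highest at day 3 and Notch1 at day 7. The part of these markers in the Notch1 result was not tested.

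**Figure D4:**
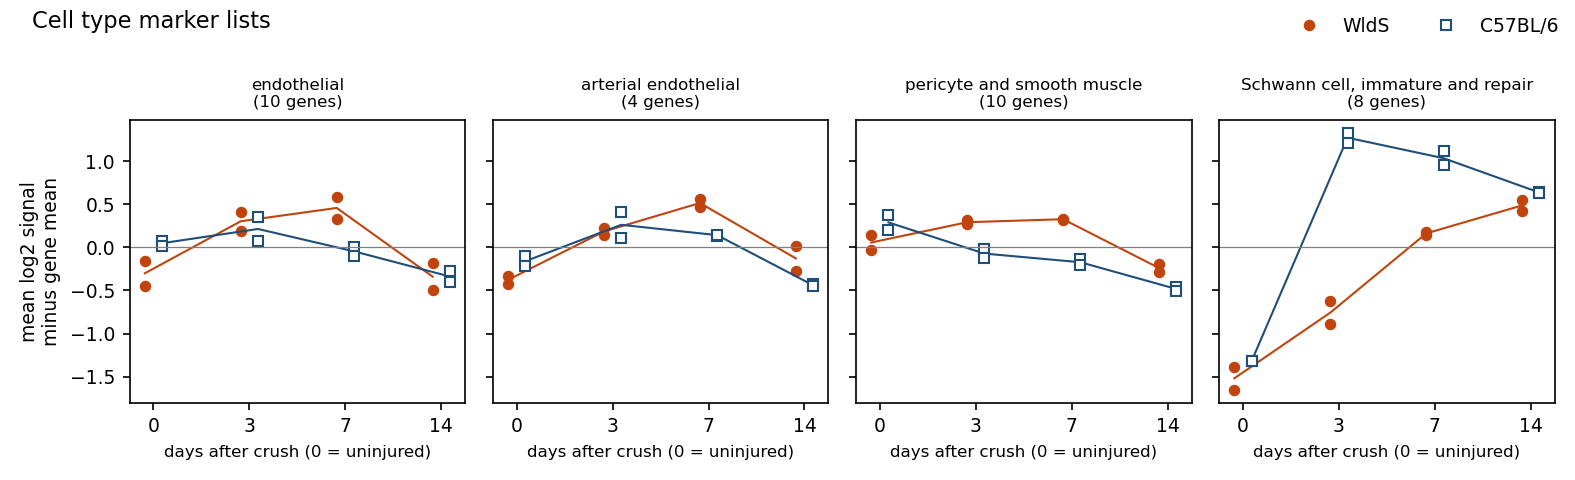
Mean log2 signal of 4 lists of marker genes, each gene set to its own mean over the 16 arrays (y axis), against days after the crush (x axis, evenly spaced time points), with 1 point per array, WldS as filled circles left of C57BL/6 as open squares, and lines through the group means. The endothelial list is at 0.33 to 0.58 at day 7 in WldS nerves and at -0.10 to 0.01 in C57BL/6 nerves, while the repair Schwann cell list is lower in WldS nerves at days 3 and 7.

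For each member the 3 genes with the most similar profile were found by Pearson's r of log2 values over the 16 arrays. These arrays come from 8 groups and may share a normalization. Notch1 was most like Mcam (r = 0.97), Zfp516 (0.96) and Cnksr3 (0.95), and Hey1 was most like Hspa13 (0.97), Cdk17 (0.96) and Ddx50 (0.95). The genes most like Notch4 were Peak1 (0.92), Mecom (0.92) and Tie1 (0.91), the last a receptor of endothelial cells. Those most like Jag1 were Rgs5 (0.92), Dapk1 (0.88) and the endothelial receptor Adgrl4 (0.87). Dll1 was most like Esam (0.87), Ptprb (0.85) and Adgrf5 (0.84), all known from endothelial cells. Notch3 was nearest to Glis2 (0.93), Sult5a1 (0.92) and Bnc2 (0.91), and Notch2 to Ifitm10 (0.84), Myl12b (0.83) and Tbc1d14 (0.82). Dll4 (Nr5a2, Pax6 and Unc80, 0.86 to 0.87) and Hes1 (P3h4, Ccdc122 and Pdgfrl, 0.83 to 0.86) were called in no comparison.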

How the data were processed

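RNA of 16 pools of mouse sciatic nerve was measured on 16 arrays, 2 in each of 8 groups of strain and day. Per the labels' protocols, 10 µg of total RNA was labelled per array, and the submitters' processing notes list GCOS 1.4, RMA, limma and Partek, giving none of them a role. The log2 signals, 1 per probe set, were used as deposited by the authors. Whether and how they were normalized between arrays is not given in the sources used here. Precision is limited by the number of arrays.

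Of 45101 probe sets, 64 control sets were left out, 34945 carried 1 gene symbol in the platform's probe table, 932 several and 9160 none, and only those with 1 symbol were used. The brightest probe set by mean signal stood for its gene. Genes below the 30th percentile of probe set means (log2 5.37) were left out, which left 14545 of 18193 genes tested. Group means were fitted to all 16 arrays with limma 3.58.1 in R 4.3.3 (8 residual and 5.82 prior degrees of freedom). The 18 contrasts were tested two-sided with Benjamini-Hochberg adjustment over all genes tested, separately per contrast, and calls lie below 0.05. The fit was checked on simulated data with known changes. That check passed or failed on the largest of them, which exceeded every member's change.

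All 10 members are named. Of each list of other pathway genes, up to 4 with the largest called change could be named, and others are marked. Each member's 3 most similar genes are named with clone names passed over, as are markers of the lists described. The members and lists were chosen with earlier results of these data known. The alternatives were other normalizations and dim filters, the mean of a gene's probe sets, an intensity trend, fits on fewer arrays, a replicate block, the 3'/5' index and leaving out each array.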

Additional observations from a re-analysis of the deposited data

Results flagged for a closer look

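On its brightest probe set, Jag1 changed differently after the crush in the strains. The second probe set also lay above day 0 in C57BL/6 nerves at day 7, as given above. On the brightest set the day 0 levels differed by -0.38 ± 0.16 (WldS less C57BL/6, adjusted p = 0.251). Its change from day 0 to day 7 was 1.02 in WldS nerves and 0.02 in C57BL/6 nerves, on the log2 scale. The test of the difference between the 2 changes in limma gave 1.00 ± 0.23 (SE, adjusted p = 0.0236), and its adjusted p ran from 0.0147 to 0.226 over the alternatives tried. With the mean of a gene's probe sets it was 0.51, and Dll1 was called instead (0.71, adjusted p = 0.044). In the same comparison 4 of 10 endothelial markers and 5 of 10 pericyte and smooth muscle markers were called higher, with 4.11% of all genes called. The part of these markers in the Jag1 result was not tested.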

How the results depend on the processing

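Of the 162 member differences tested, 37 were called, and 16 of these kept their call and direction under all alternatives run, while 21 lost the call under at least 1. Of the 125 not called, 16 were called under at least 1 alternative, and 0 called differences reversed. The kept calls were 6 of Notch1 at days 7 and 14 in both strains, between days 3 and 7 in C57BL/6 nerves and between the strains over all days. They were also Hey1 at days 7 and 14 in both strains and between days 3 and 7 in WldS nerves, Notch3 at day 14 in C57BL/6 nerves and between the strains over all days, Notch4 at day 7 in WldS nerves and at day 3 in C57BL/6 nerves, and Jag1 at day 7 in WldS nerves. Apart from the fits that leave out 1 array, counts of calls are given here only where they moved by over 1.5 times. With a filter at the 50th percentile, Notch4 and Dll4 were not tested. The calls became 1 instead of 2 at day 3 against day 0 in C57BL/6 nerves, 1 instead of 2 at day 7 against day 3 in C57BL/6 nerves, and 1 instead of 2 at day 14 against day 7 in WldS nerves. With the mean of a gene's probe sets they were 1 instead of 3 at day 3 against day 0 in WldS nerves and 1 instead of 2 at day 7 against day 3 in C57BL/6 nerves. They were also 1 instead of 2 at day 14 against day 7 in WldS nerves, and 0 instead of 1 at day 3 and 1 instead of 2 at day 14 between the strains. With the 3'/5' index as a covariate they were 1 at day 3 against day 0 and 1 at day 14 against day 7 in WldS nerves, and 3 at day 3 and 0 at day 14 between the strains. That covariate also ended the calls of Notch2 and Dll1 at day 7 against day 0 in WldS nerves. Without the 2 high-index arrays the counts were 1 at day 3 against day 0 and 0 at day 14 against day 7 in WldS nerves. They were also 0 at day 14 between the strains and 0 for the interaction at day 7 (the WldS change since day 0 less that of C57BL/6 nerves). With quantile normalization, cyclic loess or only the arrays of a contrast, 1 instead of 2 members was called at day 7 against day 3 in WldS nerves and 1 instead of 2 at day 14 between the strains. With only the arrays of a contrast, 1 was called at day 14 against day 7 in WldS nerves, 1 instead of 3 at day 7 between the strains and 0 for the interaction at day 7. Median centring gave 1 at day 14 between the strains, and no dim filter or an intensity trend gave 0. For the interaction at day 7, median centring and cyclic loess called 3, and quantile normalization and the intensity trend called 2. Beyond the fewer genes or arrays of some settings, the cause was not tested. The fit with a replicate block called 1 at day 14 against day 7 in WldS nerves and 0 at day 14 between the strains, and moved no other count of calls by over 1.5 times. Over 28 pairs of groups the deviations of same-numbered arrays correlated with a median r of 0.006, from -0.58 to 0.19. Of these pairs, 5 exceeded 0.1 and 13 were below 0, so no pairing by number held across the groups. Leaving out 1 array at a time, counts ran in WldS nerves from 1 to 4 at day 3 and 4 to 6 at day 7 against day 0, 1 to 2 at day 7 against day 3 and 0 to 2 at day 14 against day 7. In C57BL/6 nerves they ran from 1 to 3, 2 to 3 and 3 to 4 at days 3, 7 and 14 against day 0 and from 1 to 3 at day 7 against day 3. Between the strains they ran from 0 to 2, 0 to 4 and 0 to 2 at days 3, 7 and 14, from 3 to 4 over all days, and from 0 to 3 for the interaction at day 7.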
